A study of Homo sapiens with 6 samples.

Results

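AP-1 transcription factor genes and the feedback inhibitors of the mitogen-activated protein kinase (MAPK) pathway were followed in HSC-3 cells labelled as overexpressing trypsin-2. Every probe set annotated to a member gene and to no other gene was taken. These 10 genes, FOS, FOSL1, JUN, JUNB, EGR1, DUSP4, DUSP5, DUSP6, SPRY2 and SPRY4, had 19 probe sets among 54613 on the array that are not controls, and all 19 passed the filter on dim probe sets that left 27307 for testing. No probe set was shared between a member and another gene. JUN had 4 probe sets, EGR1, DUSP4 and DUSP6 had 3 each, and the others had 1, so that the probe sets of a gene are repeated readings of it and not separate members.

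HSC-3 is a line established from a squamous cell carcinoma of the human tongue. The series compared 3 arrays of HSC-3 cells labelled TAT-2, overexpressing trypsin-2, with 3 arrays of HSC-3 cells labelled with a control vector and no trypsin-2 expression, and all cells were grown for 48 h in medium with fetal calf serum and hydrocortisone and were then detached with trypsin, washed and frozen. The labels do not say whether either line is a clone or a pool, nor whether replicates were separate cultures, and a p-value here therefore covers the spread among these 6 arrays only, which may be technical. Precision is limited by there being 3 arrays per group.

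Growth factor receptors signal through RAS, RAF, MEK and ERK kinases to the nucleus, where ERK raises transcription of immediate early genes such as FOS and EGR1 within minutes and prolongs the life of several of their proteins. FOS and JUN family proteins pair through leucine zippers to form AP-1, a transcription factor of stress, growth and invasion genes in squamous epithelium. The pathway also induces its own brakes: the dual-specificity phosphatases DUSP4, DUSP5 and DUSP6 remove phosphate from MAP kinases, and Sprouty proteins act upstream, near RAS and RAF.

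Values are MAS5 signals on a linear scale. Differences, standard errors and tests are on the scale of log2(signal + 16), which understates changes of dim probe sets. Folds are taken from that scale and can differ from the ratio of the mean signals beside them. Tests were computed with limma with Benjamini-Hochberg adjustment over all 27307 probe sets at a threshold of 0.05. The introduced gene, PRSS2, went against the labels: its brighter probe set gave 20.4, 13.8 and 14.6 on TAT-2 replicates 1, 2 and 3, against 19.6, 80.8 and 83.2 on vector replicates 1, 2 and 3 (log2 -1.12 ± 0.37, SE, adjusted p = 0.467 in limma). Every direction therefore rests on the labels, and TAT-2 and vector stand below for the arrays labelled so. Epithelial markers fitted the line, with 7 of 10 listed markers on the array under a symbol of their own, all tested and all averaging at least 999, and summed signals of 28458 to 30905 on TAT-2 arrays and 26950 to 35822 on vector arrays. Fibroblast markers summed to 131 to 137 on TAT-2 arrays and 112 to 136 on vector arrays. Leukocyte markers summed to 33.0 to 96.7 and 36.2 to 60.8, and endothelial markers to 37.5 to 49.5 and 38.7 to 42.4. The dim PDGFRB, PTPRC and CDH5 were at means of 3.22, 4.59 and 3.84. The brightest marker of each list, COL1A1, CD14 and PECAM1, averaged 79.8, 36.3 and 33.6. In these lists 2, 1 and 1 markers passed the filter. The arrays of replicate 1 differed from the remaining 4 in both groups, and principal component 1, with 45.6% of the variance, separated them. The labels' descriptions also number replicates 2 and 3 of each group in a way that replicate 1 lacks.

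None of the 19 probe sets passed the test between TAT-2 and vector arrays in the fit with group as the only term, in which limma called 0.0293% of all probe sets (2 of the 19 had an unadjusted p under 0.05, against 7.86% of all). With the replicate number as a block, which takes the shift of replicate 1 out of the spread, limma called 6 of the 19, 1 for each of 6 genes, against 5.21% of all probe sets. FOS, EGR1, DUSP5 and SPRY4 rose (2.55% of all rose) and FOSL1 and DUSP4 fell (2.66% of all fell). The same 6 were called with replicate 1 as a batch factor (4.51% of all probe sets). All 6 calls rest on the trend of the variance with intensity, since limma with the block but without that trend called 0 of the 19 and 0 of all probe sets, with 9 of the 19 and 4260 of all at an unadjusted p under 0.05. With the trend, 10 of the 19 and 18.5% of all had an unadjusted p under 0.05. In 13 of the 19 the difference had 1 direction in all 3 replicate numbers (39.1% of all probe sets), 8 upward (18.6% of all) and 5 downward (20.5% of all). The groups did not overlap for 4 of the 19, against 14.1% of all. The median difference was 0.12 over the 19 and -0.01 over all probe sets tested.

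**Figure D1:**
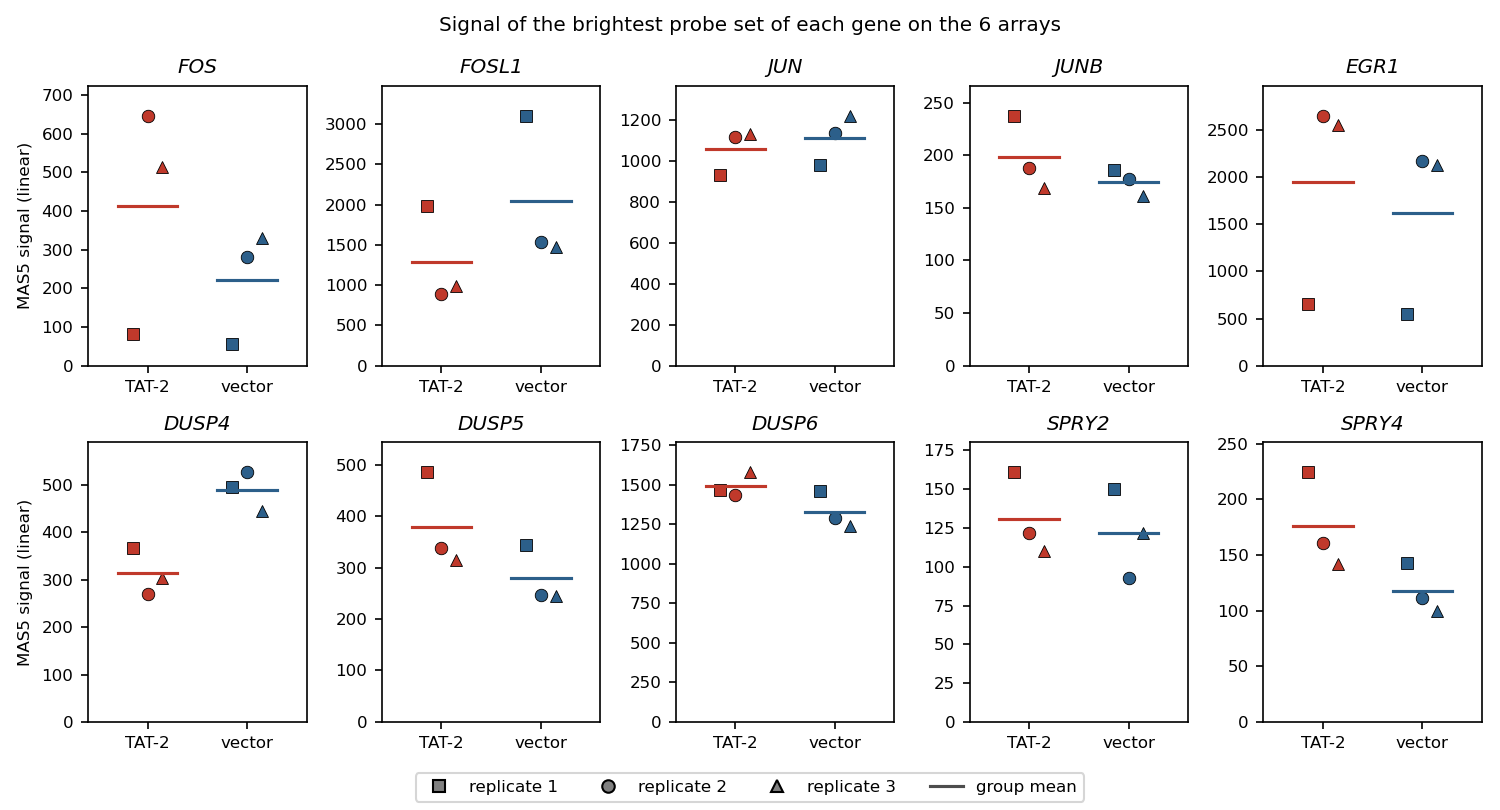
MAS5 signal (linear, from 0) of the brightest probe set of each of the 10 genes on the 3 TAT-2 and 3 vector arrays, with replicate numbers as symbols and group means as lines. Squares, which mark replicate 1, lie far below the other arrays for FOS and EGR1 and above them for FOSL1, and the groups are apart without overlap for DUSP4.

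FOS encodes the short-lived AP-1 subunit that gives the family its name. It gave 82.2, 646 and 514 on TAT-2 replicates 1, 2 and 3, against 56.5, 280.3 and 331 on vector replicates 1, 2 and 3. FOS was higher on the TAT-2 array of every replicate number, yet TAT-2 replicate 1 lay below vector replicates 2 and 3, so the groups overlapped. In RNA of whole cultures, a change in the number of cells of a kind and a change per cell cannot be told apart. The means were 414 ± 295 on TAT-2 arrays and 223 ± 146 on vector arrays (SD, n = 3 each), and the log2 difference was 0.74 ± 0.78 (SE), 1.67-fold on that scale. With the block the same difference had an SE of 0.12 (adjusted p = 0.00590 in limma), and within replicate numbers 1, 2 and 3 it was 0.44, 1.16 and 0.61. Within replicates 2 and 3 alone FOS was 0.88 higher (adjusted p = 0.0171 in limma). The blocked call was lost without a filter on dim probe sets.

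FOSL1 encodes FRA1, a FOS relative that lacks the transactivation domain of FOS and whose protein is stabilised by ERK. It gave 1979.8, 896 and 996 on TAT-2 replicates 1, 2 and 3, against 3103, 1542 and 1478 on vector replicates 1, 2 and 3. Here the TAT-2 array was the lower in every replicate number, while TAT-2 replicate 1 exceeded vector replicates 2 and 3. The means were 1290.3 ± 599 and 2041 ± 920.2 (SD, n = 3 each), and the log2 difference was -0.66 ± 0.35 (SE), 1.58-fold lower on TAT-2 arrays on that scale. FOSL1 had the smallest blocked adjusted p of the 19 (0.000353 in limma, SE 0.07), with differences of -0.64, -0.77 and -0.56 by number. It was called in 11 of 12 settings with the block, the exception being the fit without the intensity trend, and also within replicates 2 and 3 alone (-0.67, adjusted p = 0.0107 in limma).

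JUN, the leucine zipper partner of FOS in AP-1, was read by 4 probe sets, none of them called with or without the block over all 6 arrays. The brightest gave 934, 1118 and 1133 on TAT-2 arrays and 983, 1136 and 1221 on vector arrays, a log2 difference of -0.07 ± 0.06 (SE with the block). The other JUN probe sets, the second brightest of which gave 297, 487 and 431 on TAT-2 arrays against 229, 386 and 519.7 on vector arrays, differed by -0.13 to 0.14, and none of these 3 kept 1 sign over the replicate numbers. The second brightest was called with the block when both replicate 3 arrays were left out (log2 0.34). JUNB, a JUN relative that often restrains JUN, gave 237, 187 and 169 on TAT-2 arrays and 186, 177 and 161 on vector arrays. JUNB was higher on the TAT-2 array of each number, by 0.33, 0.07 and 0.06, but was not called (log2 0.15 ± 0.09, SE with the block, adjusted p = 0.436 in limma).

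EGR1 encodes a zinc finger transcription factor of the immediate early response. Its brightest probe set gave 649, 2649 and 2548 on TAT-2 replicates 1, 2 and 3, against 549, 2169 and 2133 on vector replicates 1, 2 and 3. The TAT-2 array was higher by 0.23, 0.29 and 0.25 in the 3 numbers, and with the block EGR1 rose by a log2 of 0.26 ± 0.06 (SE, adjusted p = 0.0350 in limma), against an SE of 0.64 without it. The other EGR1 probe sets were not called over all 6 arrays. The middle one gave 456, 848 and 707 on TAT-2 arrays and 301.5, 887 and 938 on vector arrays, with differences of 0.57, -0.06 and -0.40 by number. The dimmest gave 85.0, 184 and 74.3 on TAT-2 arrays and 56.2, 106 and 92.8 on vector arrays, with differences of 0.48, 0.72 and -0.27, and was called upward with the block when both replicate 3 arrays were left out (log2 0.60, adjusted p = 0.0151 in limma). The EGR1 call was also lost in 6 of 12 blocked settings, among them the mean of its probe sets, so over all 6 arrays the rise holds for 1 probe set of 3.

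The promoters of FOS, EGR1 and JUN are shown because FOS and EGR1 had the largest replicate 1 shifts of the 10 genes and JUN is the partner of FOS. RefSeq sequence of assembly GRCh38.p14 was matched by symbol for 7 members in 9 windows, each the 250 bases before an annotated start, and the windows of FOSL1, DUSP4 and DUSP5 were not used here. Capitals mark TGACATCA, the AP-1-like element, TGACG, the core of the cAMP response element, and the CArG box bound by serum response factor, searched on both strands. FOS lies at chr14:75278578-75278827 (plus strand), JUN at chr1:58784048-58784297 (minus strand) and EGR1 at chr5:138465229-138465478 (plus strand).
FOS: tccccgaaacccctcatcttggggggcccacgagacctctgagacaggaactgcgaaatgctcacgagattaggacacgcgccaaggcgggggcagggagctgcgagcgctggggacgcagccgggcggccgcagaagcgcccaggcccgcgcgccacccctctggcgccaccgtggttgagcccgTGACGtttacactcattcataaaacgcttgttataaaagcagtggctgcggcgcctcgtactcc
JUN: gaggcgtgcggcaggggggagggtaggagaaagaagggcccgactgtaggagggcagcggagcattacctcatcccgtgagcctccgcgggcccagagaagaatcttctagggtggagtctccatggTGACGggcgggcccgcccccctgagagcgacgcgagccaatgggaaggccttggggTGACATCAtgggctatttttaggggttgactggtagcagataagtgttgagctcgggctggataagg
EGR1: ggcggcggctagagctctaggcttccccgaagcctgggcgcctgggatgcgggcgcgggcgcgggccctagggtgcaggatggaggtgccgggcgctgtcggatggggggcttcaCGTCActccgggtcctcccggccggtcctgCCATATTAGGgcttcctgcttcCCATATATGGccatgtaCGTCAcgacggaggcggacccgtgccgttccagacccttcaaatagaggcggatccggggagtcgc
The EGR1 window held 2 CArG boxes, 105 to 96 and 83 to 74 bases before the start, and 2 TGACG matches on the opposite strand. A CArG box was present in 1.16% of all 35116 promoter windows of that length. The FOS window held TGACG 64 to 60 bases before the start, an element found in 21.2% of windows. JUN held TGACATCA 67 to 60 bases before the start, as 2.38% of windows do, and TGACG at 123 to 119. The JUNB window, not printed, held TGACG at 137 to 133. TGACTCA, the classical AP-1 element (4.20% of windows), and CCGGAAG, an ETS element (8.52% of windows), were not among the letters of any of the 9 windows. No 2 of these matches overlapped. The matches describe these windows and are not shown to be used in these cells. Sequence further upstream than 250 bases was not searched. The lack of a CArG box in the FOS window therefore does not mean that the FOS promoter has none.

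DUSP4, a nuclear phosphatase of ERK, JNK and p38, fell with the block. Its brightest probe set gave 367, 271 and 303 on TAT-2 replicates 1, 2 and 3, against 497, 527 and 445 on vector replicates 1, 2 and 3. Every TAT-2 array lay below every vector array, as for 7.35% of all probe sets. The means were 314 ± 49.2 and 489.8 ± 41.5 (SD, n = 3 each). The log2 difference was -0.62 ± 0.14 (SE, adjusted p = 0.193 in limma), 1.54-fold lower on TAT-2 arrays on that scale, and with the block the SE was 0.10 (adjusted p = 0.00390 in limma). DUSP4 was called in 11 of 12 settings with the block, the exception again being the fit without the intensity trend. Both other DUSP4 probe sets were lower on the TAT-2 array in all 3 replicate numbers. The middle one gave 365, 199 and 301 on TAT-2 arrays, against 411, 368 and 374 on vector arrays, without overlap (log2 -0.43, adjusted p = 0.0518 with the block in limma), and was called in 5 of 11 blocked settings. The dimmest gave 302, 176 and 165 on TAT-2 arrays, against 348, 216 and 198 on vector arrays (log2 -0.24, adjusted p = 0.131 with the block in limma).

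DUSP5, a nuclear phosphatase selective for ERK, went the other way. It gave 486, 339 and 314 on TAT-2 replicates 1, 2 and 3, against 345, 247 and 245 on vector replicates 1, 2 and 3. The TAT-2 array was higher by 0.47, 0.43 and 0.34 in the 3 numbers, with overlap of the groups only through vector replicate 1. The means were 379 ± 92.7 and 279 ± 57.0 (SD, n = 3 each), and with the block DUSP5 rose by a log2 of 0.41 ± 0.08, 1.33-fold on that scale (SE, adjusted p = 0.00972 in limma). The call was lost with the block when both arrays of replicate 1 or both of replicate 2 were left out, at differences of 0.38 and 0.41.

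DUSP6, the cytoplasmic ERK phosphatase known as MKP3, gave 1465, 1438 and 1581 on TAT-2 arrays and 1463, 1288 and 1237 on vector arrays with its brightest probe set. All 3 DUSP6 probe sets were higher on the TAT-2 array in each replicate number. For both dimmer ones every TAT-2 array lay above every vector array, as for 6.73% of all probe sets, with signals of 670.1, 559 and 569 on TAT-2 arrays against 527, 500.1 and 478 on vector arrays for the dimmest. The differences were small, with log2 values of 0.17, 0.12 and 0.25 from brightest to dimmest, and none was called with the block (adjusted p = 0.253, 0.384 and 0.0700 in limma), although the dimmest was called with the block and a stricter filter.

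SPRY4 and SPRY2 encode Sprouty proteins that damp receptor tyrosine kinase signalling. SPRY4 gave 224, 161 and 142 on TAT-2 replicates 1, 2 and 3, against 143, 111 and 99.9 on vector replicates 1, 2 and 3. It was higher on the TAT-2 array by 0.59, 0.48 and 0.45 in the 3 numbers, and the groups overlapped only through TAT-2 replicate 3 and vector replicate 1. The means were 176 ± 43.0 and 118 ± 22.5 (SD, n = 3 each), and with the block SPRY4 rose by a log2 of 0.51 ± 0.10, 1.42-fold on that scale (SE, adjusted p = 0.0119 in limma). The blocked call was lost without a filter and without both replicate 1 arrays, where the difference was 0.51 and 0.46. SPRY2 gave 161, 121 and 110.0 on TAT-2 arrays and 149.9, 92.9 and 122 on vector arrays, with differences of both signs by number and no call (log2 0.10 ± 0.11, SE with the block). The SPRY4 window, at chr5:142324248-142324497 (minus strand, GRCh38.p14), is shown as that of the Sprouty gene that was called, with its TGACG match in capitals.
SPRY4: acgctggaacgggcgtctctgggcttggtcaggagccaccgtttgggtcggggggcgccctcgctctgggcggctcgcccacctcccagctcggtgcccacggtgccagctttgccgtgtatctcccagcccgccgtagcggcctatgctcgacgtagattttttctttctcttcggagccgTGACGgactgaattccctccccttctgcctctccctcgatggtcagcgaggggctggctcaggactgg

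**Figure D2:**
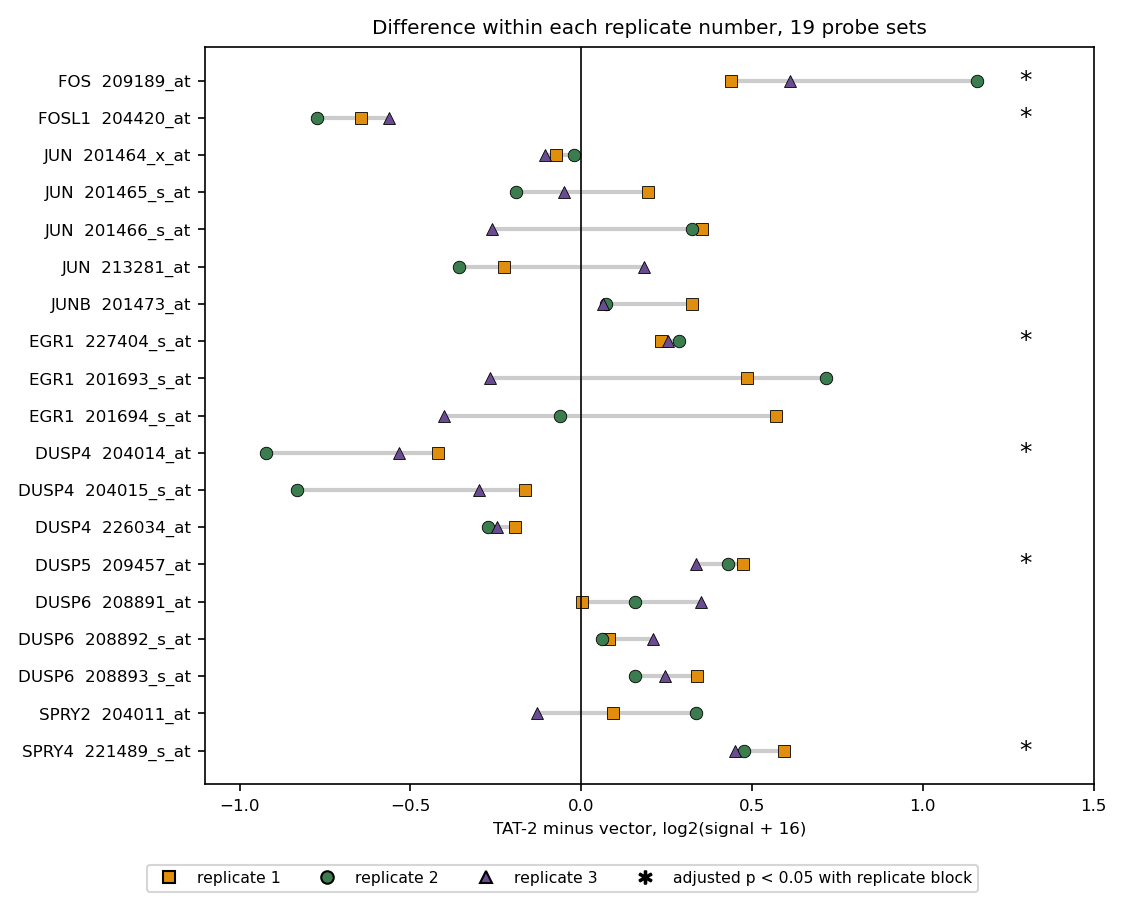
Log2 difference, TAT-2 minus vector, within each replicate number for the 19 probe sets, with stars where limma with the replicate block gave an adjusted p under 0.05. FOSL1 and all 3 DUSP4 probe sets lie left of 0, FOS, DUSP5, DUSP6 and SPRY4 right of it, and the symbols of most JUN probe sets and of 2 of the 3 EGR1 probe sets straddle it.

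A second shift, apart from the labelled groups, ran through the same genes. With group as a term, limma called 12 of the 19 probe sets between replicate 1 and replicates 2 and 3, against 21.5% of all. Of these, 5 were higher on replicate 1 (11.4% of all) and 7 lower (10.0% of all). By the brightest probe set of each gene, 7 of the 10 genes were called, against 25.0% of all genes. There 4 were higher (13.2% of all genes) and 3 lower (11.9% of all genes). At an unadjusted p under 0.05 there were 16 of the 19 and 34.4% of all. Both replicate 1 arrays lay outside the range of the others for 11 of the 19 (37.7% of all), above it for 4 (20.4% of all) and below it for 7. The median absolute shift was 0.46 over the 19 and 0.21 over all. A shift of more than 1 on the log2 scale was found for 4 of the 19 and for 1.37% of all probe sets. In 13 of the 19 the shift of replicate 1 exceeded the TAT-2 difference in size, as in 63.8% of all.

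FOS, EGR1 and JUN were low on replicate 1. FOS averaged 69.3 on both replicate 1 arrays and 443 on the other 4. Its log2 shift of -2.37 ± 0.13 (SE, adjusted p = 6.72e-06 in limma), 5.16-fold lower on that scale, was the third largest shift in size of the 27307 probe sets. EGR1 averaged 599 on replicate 1 and 2375 on the others with its brightest probe set, and its log2 shift of -1.96 ± 0.06, 3.88-fold lower on that scale, was the sixth largest. A further EGR1 probe set fell by 1.15 and the dimmest was at -0.54 (adjusted p = 0.141 in limma). All 4 JUN probe sets were called lower on replicate 1, by 0.26 to 0.83, and for each of them both replicate 1 arrays lay below the 4 others, as for 17.4% of all probe sets. The call of the JUN probe set with a shift of -0.37 was lost in 8 of 14 settings. The other JUN calls were lost without 1 or both of the replicate 1 arrays, and that of the brightest also without the intensity trend. JUNB was not called (log2 0.26 ± 0.10, SE).

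FOSL1 and several feedback inhibitors were high on replicate 1. FOSL1 averaged 2541 on replicate 1 and 1228 on the others, a log2 shift of 1.04 ± 0.07 (SE, adjusted p = 9.84e-06 in limma), 2.06-fold higher on that scale. DUSP5 was higher by 0.51 ± 0.08, SPRY4 by 0.46 ± 0.11 and SPRY2 by 0.43 ± 0.12, and of the DUSP4 probe sets only the dimmest was called (log2 0.74 ± 0.09). The SPRY2 call was lost in 6 of 15 settings, among them no filter, quantile normalization and no intensity trend. The SPRY4 call was lost without TAT-2 replicate 1 and without vector replicate 1, and the DUSP5 call without TAT-2 replicate 1. The DUSP6 probe sets, at 0.06 to 0.17, were not called. FOS, FOSL1, the brightest EGR1 probe set, the middle EGR1 probe set and the dimmest DUSP4 probe set were called in every setting tried for this shift, while leaving out TAT-2 replicate 1 left 6 of the 19 called and leaving out vector replicate 1 left 7.

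Some measures of the arrays moved with the same shift. A 28S ribosomal RNA probe set averaged 606 on replicate 1 and 2232 elsewhere. For ACTB, the 3′ probe set exceeded the 5′ probe set by a log2 of 0.23 on replicate 1 and 0.53 elsewhere, while for GAPDH the same measure ran the other way, at 0.061 on replicate 1 and 0.0046 elsewhere. Their part in the result was not tested. Whether the TAT-2 difference itself changed between replicate 1 and the others was tested as an interaction: limma called 0 of the 19 and 0 of 27307 (0% of all), with 1 of the 19 and 3.75% of all at an unadjusted p under 0.05. That probe set was the middle one of EGR1, whose TAT-2 difference was 0.80 larger in replicate 1. Replicate 1 held only 1 array of each group, so 0 calls do not show that the TAT-2 difference was the same there.

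**Figure D3:**
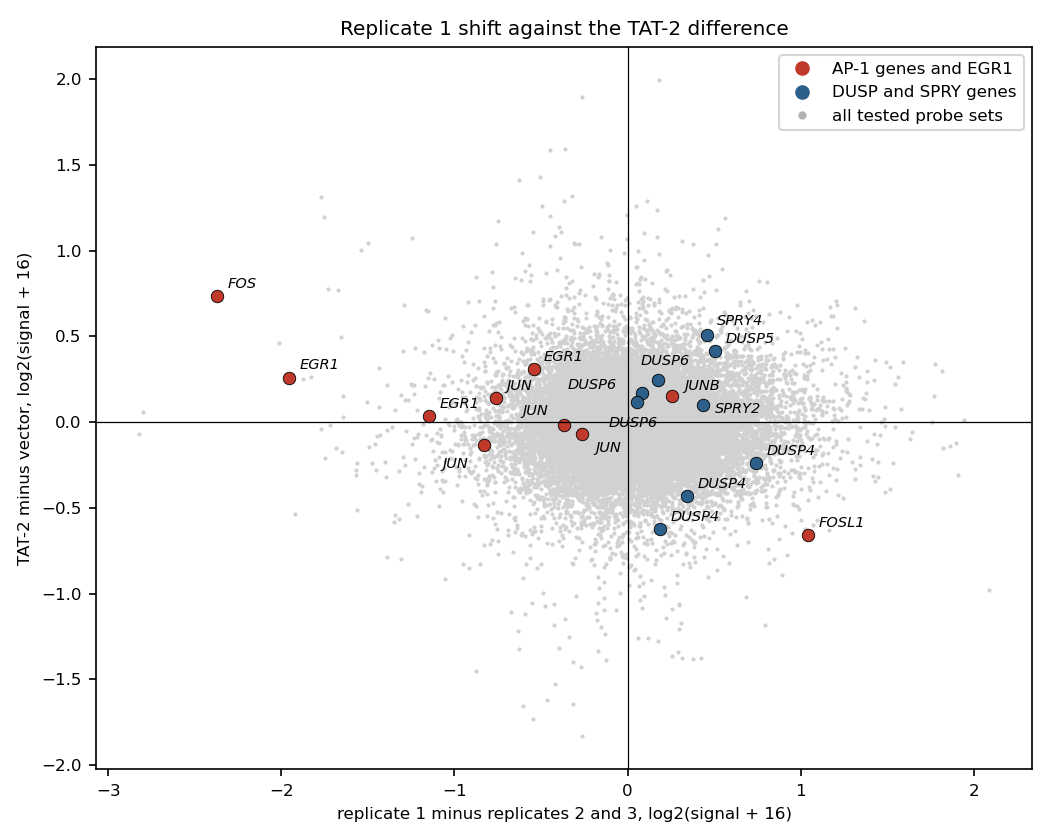
Replicate 1 minus replicates 2 and 3 (horizontal) against TAT-2 minus vector (vertical), both as log2(signal + 16), for the 19 probe sets and, in grey, all 27307 tested. FOS and the brightest EGR1 probe set lie at the far left, at -2.37 and -1.96, and FOSL1 lies at the lower right, at 1.04 and -0.66.

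Other genes of the pathway were read from lists, each gene by its brightest probe set. Over genes, limma called 0.0576% between TAT-2 and vector without the block, 6.96% with it, 3.50% upward and 3.46% downward, and 25.0% for replicate 1, with 13.2% of all genes higher and 11.9% lower there. Of 12 tested further AP-1 subunits, limma called 0 between TAT-2 and vector in either fit, with 0 at an unadjusted p under 0.05 without the block. ATF2, a partner of JUN, was at 0.30 ± 0.09 with the block (adjusted p = 0.0736 in limma), and FOSL2 at -0.25 ± 0.10, ATF7 at -0.26 ± 0.08 and JUND at 0.21 ± 0.08, each with at least 1 further probe set of the opposite sign. The median of the 12 was -0.02, against -0.002 over all genes tested. For replicate 1, 5 of the 12 were lower and 1 was higher.

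Of 18 further immediate early genes, 1 rose and 0 fell with the block. It was ZFP36, an RNA-binding protein that shortens the life of cytokine transcripts, with 304, 642 and 544 on TAT-2 arrays and 251, 393 and 426 on vector arrays (log2 0.43 ± 0.09, SE, adjusted p = 0.0177 in limma), named after its values were seen. MCL1, MYC, KLF4 and IER3 had the smallest p without the block, at 0.15, 0.21, -0.35 and 0.16, and were called in neither fit. For MCL1, 2 of 5 further probe sets had the opposite sign. On replicate 1, 7 of the 18 were lower and 3 were higher. The median TAT-2 difference of the 18 was 0.04.

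Of 6 further MAPK phosphatases and 4 further Sprouty or SPRED genes limma called 0 between TAT-2 and vector in either fit, with 0 at an unadjusted p under 0.05 without the block. The phosphatases DUSP10, DUSP9, DUSP8 and DUSP7 were at -0.18, 0.22, 0.23 and -0.05. SPRED1, SPRED2, SPRED3 and SPRY1 were at -0.18, 0.15, 0.09 and 0.06, and SPRED1, SPRED2 and SPRY1 each had 1 further probe set of the opposite sign. The list medians were 0.17 for the phosphatases and 0.07 for the Sprouty and SPRED genes, and on replicate 1 2 phosphatases were lower and 1 Sprouty or SPRED gene was higher. DUSP1, the immediate early phosphatase, joined FOS in the replicate 1 shift, with 223 and 245 on replicate 1 of TAT-2 and vector, against 999 and 1102 on TAT-2 replicates 2 and 3 and 724 and 821 on vector replicates 2 and 3 (log2 -1.87 ± 0.12, SE). It was chosen after its values were seen, and of 2 further tested DUSP1 probe sets 1 ran the opposite way. FOSB (-1.72 ± 0.22) and ATF3 (-1.36 ± 0.16), AP-1 subunits chosen in the same way, were also lower on replicate 1, FOSB with 6.35 and 4.37 there, below the level of the filter.

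Among 18 further genes known to be driven by ERK, 3 fell and 0 rose with the block, against 3.46% and 3.50% of all genes. EPHA2, an ephrin receptor, gave 478, 322 and 299.9 on TAT-2 arrays and 762, 436 and 416 on vector arrays (log2 -0.51 ± 0.08, adjusted p = 0.00356 in limma). CCND1, which encodes cyclin D1, gave 2532, 1501 and 1680.2 on TAT-2 arrays and 3097, 2038 and 2232 on vector arrays (log2 -0.38 ± 0.06, adjusted p = 0.00685). TRIB1, a pseudokinase, fell by 0.35 on the log2 scale. IL11, at -0.55 ± 0.21, was not called (adjusted p = 0.176 in limma), and its mean of 13.3 on TAT-2 arrays lay below the level of the filter. EPHA2 and CCND1 shared the pattern of FOSL1 in both comparisons, in that they were called lower on TAT-2 arrays with the block and higher on replicate 1, by 0.71 and 0.60. TRIB1 was instead called lower on replicate 1 (log2 -0.46 ± 0.09, SE, adjusted p = 0.00369 in limma). The median of the 18 was -0.16, and on replicate 1 6 of them were higher and 2 lower.

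Of 15 tested genes of the ERK cascade, limma called 0 in either fit and 0 had an unadjusted p under 0.05 without the block. With the block EGFR, the receptor, was at -0.11 ± 0.07 and MAP2K1, which encodes MEK1, at -0.10 ± 0.07. RPS6KA2 was at -0.26 and ELK1 at 0.21, and the list median was -0.07. Of further probe sets, 3 of 7 for EGFR and 1 of 2 for RPS6KA2 had the opposite sign. Of 12 genes of the JNK and p38 cascades MAP2K4, a kinase that activates JNK, was the 1 that fell with the block, and 0 rose (271.5, 216 and 269 on TAT-2 arrays, against 357, 319.8 and 310.4 on vector arrays, log2 -0.37 ± 0.09, adjusted p = 0.0317 in limma). MAP2K6, MAPK8 and MAP3K7 were at 0.50, 0.28 and 0.11 and were not called, and the list median was 0.03. For MAP3K7, 1 of 3 further probe sets had the opposite sign. Of all genes 6.96% were called with the block, and a difference of the cascades from them was not tested. On replicate 1, 5 genes of the ERK cascade were higher and 2 lower, and 2 of the JNK and p38 cascades were higher and 2 lower.

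Of 14 tested genes known as AP-1 targets, FOSL1 among them, 6 fell and 2 rose with the block. Of all genes 3.46% fell and 3.50% rose with it. Without the block 1 of the 14, MMP1, fell (adjusted p = 0.0386 in limma). Those that fell with the block were MMP1, MMP3, MMP13, VEGFA, CCND1 and FOSL1, of which CCND1 is also counted above. MMP1, a collagenase, fell by 1.40 on the log2 scale, MMP3 by 0.96 and MMP13, below the level of the filter on TAT-2 arrays at a mean of 7.23, by 1.07. PLAU, the urokinase plasminogen activator, rose by 0.37 ± 0.07, and CXCL8, a chemokine named after its values were seen, by 0.51 ± 0.11. VEGFA, named in the same way, gave 253, 437 and 426 on TAT-2 arrays and 415, 622 and 627 on vector arrays (log2 -0.57 ± 0.07, adjusted p = 0.00144 in limma). The median of the 14 was -0.34, against -0.002 over all genes, and on replicate 1 5 of them were higher and 3 lower. The list was chosen with earlier results of these data known, and its difference from all genes was not tested.

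**Figure D4:**
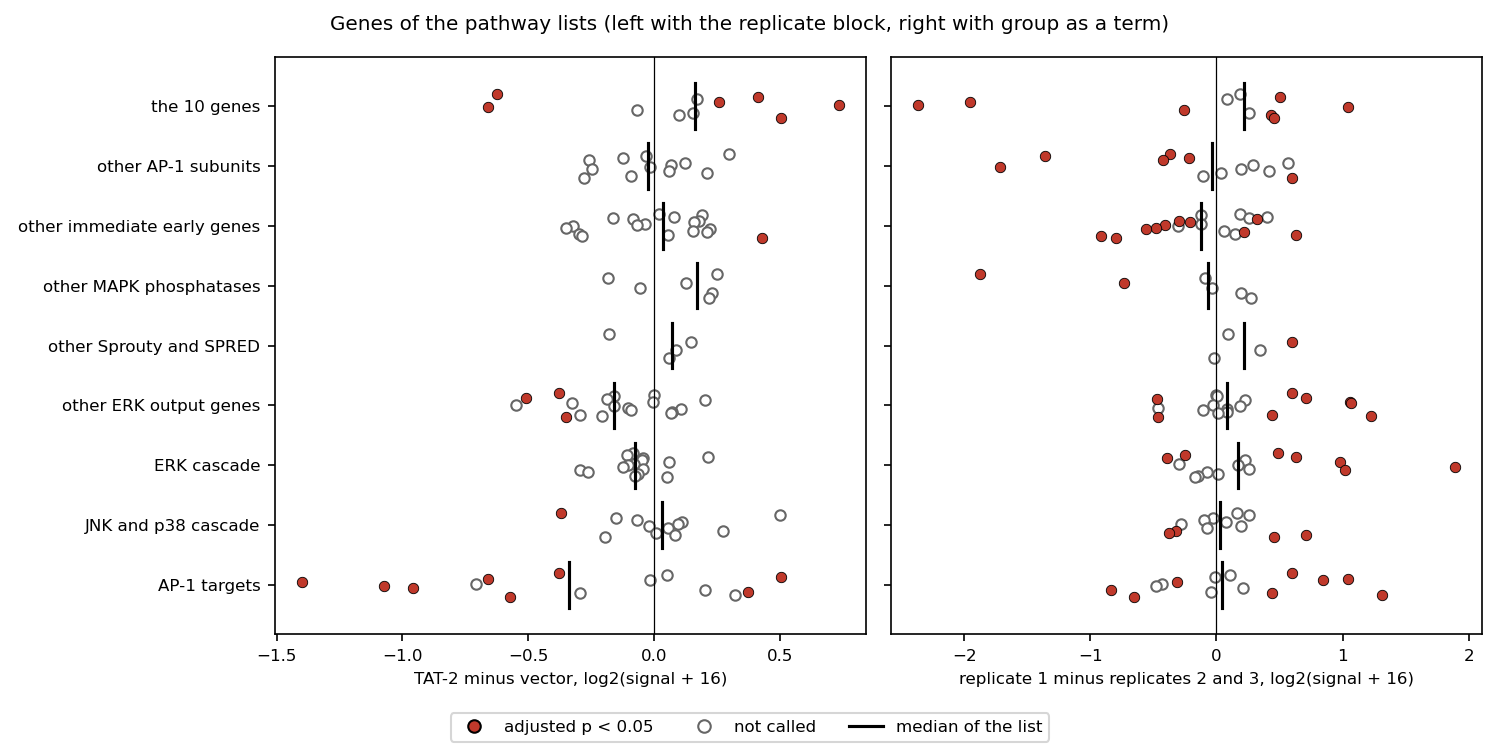
Log2 difference of each listed gene, TAT-2 minus vector with the replicate block (left) and replicate 1 minus replicates 2 and 3 (right), with called genes filled and list medians as bars. Of the lists on the left, AP-1 targets have the lowest median (-0.34) and the 10 genes include calls on both sides of 0.

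Outside the members and the lists, the genes whose values over the 6 arrays were most like those of EGR1 were TRIM6 (Pearson r = 0.997), THADA (0.993), BANP (0.993) and BIRC6 (0.9895). They were ranked among 2607 genes with an SD of at least 0.3. Members and listed genes had been left out of these 2607, so their likeness to EGR1 was not ranked. For DUSP6 the most alike of the same 2607 were RILP (0.938), PSG9 (0.937), UBE2NL (0.931) and CCDC120 (0.926). These values are descriptions of 6 arrays, the highest of many, and the arrays fall into clusters.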

How the data were processed

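RNA of 6 samples was measured on Affymetrix arrays, 3 labelled TAT-2 and 3 labelled vector, and groups and replicate numbers came from the titles. The authors deposited linear signal intensities, 1 for each probe set. MAS5 is named in the submitters' processing notes, and its version is not stated there. The authors' scaling was kept (trimmed mean 99.98 on each array, array medians 14.8 to 17.6). The platform annotation gave 41097 of 54675 probe sets 1 symbol, 1801 several and 11777 none, and 41043 were matched by gene identifier to GRCh38.p14.

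Signals were transformed as log2(signal + 16), and probe sets with a mean at or above the median (4.96, a signal of 15.2) were tested. Then limma 3.58.1 in R 4.3.3 (lmFit, eBayes with an intensity trend) was fitted to all 27307. Calls of the fit with group as the only term were first checked on simulated data that held no replicate 1 shift. The fit with the block was not checked on simulated data. The replicate 1 shift was fitted with group as a term, and its interaction with group apart. A gene with several probe sets was represented by the brightest. Deviations from the group means correlated between arrays of the same number (r = 0.64, 0.39 and 0.25 for numbers 1, 2 and 3). Differently numbered arrays 2 and 3 also correlated, at 0.32 and 0.20. TAT-2 replicate 2 was closer to vector replicate 3 (0.32) than TAT-2 replicate 3 was (0.25). A shift shared by both replicate 1 arrays also makes arrays 2 and 3 correlate, whatever their numbers. These values therefore do not settle the pairing, and the block is printed beside the fit without it.

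Members and lists were chosen with earlier results of these data known. The rule for names covers every member probe set, the 4 listed genes of smallest p per list, and the 4 genes outside members and lists most like EGR1 and DUSP6. Names outside the rule are marked as such. Alternatives changed the pseudocount, filter, normalization, variance trend, summary of probe sets, block and arrays used.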

Additional observations from a re-analysis of the deposited data

How the results depend on the processing

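With group as the only term, 0 of the 19 probe sets were called in each setting on all 6 arrays or with 1 array left out. The count over all probe sets was 8, and it was 13 after quantile normalization, 24 with array medians centred, 5 without the intensity trend, 29 genes with the mean of the probe sets of a gene, and 0 to 29 with an array left out. With the replicate block 6 of the 19 and 1424 of all were called, and with replicate 1 as a batch factor 6 and 1232. Within replicates 2 and 3 alone, again with group as the only term, 3 and 299 were called. The remaining blocked settings were chosen after seeing the data. They called 0 and 0 without the trend, 3 and 415 without a filter, 8 and 1698 with a stricter filter, 6 and 1584 after quantile normalization, 6 and 1372 with medians centred, 6 and 1296 with a pseudocount of 1, 7 and 1500 with a pseudocount of 64, 5 and 775 genes with the mean of the probe sets of a gene, and 4 to 9 and 656 to 1511 with both arrays of a replicate number left out. Without replicate 1 the block gave 4 and 827, without replicate 2 it gave 4 and 656, and without replicate 3 it gave 9 and 1511. The 6 called probe sets kept their direction in all 12 blocked settings.

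For replicate 1 against the others, the count of 12 was 6 without TAT-2 replicate 1 and 7 without vector replicate 1, and ran from 6 to 13 over all arrays left out. Over all probe sets the count was 5863, and it was 3867 without a filter, 3288 without the trend, 2945 genes with the mean of the probe sets, and 1324 to 6164 with an array left out.

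Sign changes were found for JUN, SPRY2, 3 EGR1 probe sets and DUSP6, at differences that were not called in those settings. With an array left out, the TAT-2 difference ran from -0.15 to 0.021 for the brightest JUN probe set, from -0.17 to 0.40 for the second brightest, and from -0.19 to 0.088 and -0.42 to 0.17 for the other JUN probe sets. It ran from -0.058 to 0.25 for SPRY2, and from -0.045 to 0.53, -0.48 to 0.31 and -0.39 to 0.92 for the dimmest, middle and brightest EGR1 probe sets. The brightest EGR1 probe set turned without TAT-2 replicate 2 (-0.084), TAT-2 replicate 3 (-0.057) or vector replicate 1 (-0.39), and leaving out any array leaves the replicate 1 shift unbalanced between the groups. The middle EGR1 probe set was at -0.23 within replicates 2 and 3, and at -0.23 with the block without replicate 1. With the block, the JUN probe set of difference -0.02 was at 0.072 without replicate 2 and 0.0011 without replicate 3, and SPRY2 was at -0.018 without replicate 2. The replicate 1 shift of the brightest DUSP6 probe set ran from -0.041 to 0.21 with an array left out, and the interaction of the brightest JUN probe set was 0.034 after quantile normalization. Apart from that unbalance, the cause was not tested. There are 3 arrays per group and no record of what the replicate numbers stand for. Over all 6 arrays, the 6 blocked calls rest on the block and on the intensity trend. FOS, FOSL1 and the brightest DUSP4 probe set were also called without the block within replicates 2 and 3 alone (adjusted p = 0.0171, 0.0107 and 0.0225 in limma). EGR1, DUSP5 and SPRY4 were not called there.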
